A study of Mus musculus with 15 samples.

Results

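The 3 libraries of the ventral aorta at embryonic day E10.5 (E10 AoV) were set against the 12 other libraries of the aorta-gonad-mesonephros (AGM) region. The AGM region is the part of the midgestation embryo in which the first hematopoietic stem cells form, and at E10.5 they arise beside the ventral wall of the dorsal aorta. All tissue came from C57BL/6 mouse embryos. The 4 other groups were the dorsal and ventral aorta with its surroundings at E9.5 (E9 AoD and E9 AoV), the dorsal aorta at E10.5 (E10 AoD) and the urogenital ridges at E10.5 (E10 UGR), with 3 libraries each. Every library was made from a pool of dissected tissue of many embryos, and the 3 pools of a group came from separate experiments, so that each value is an average over whole tissue and over many animals. Expression is given in RPM, the reads of a gene per megaread assigned to genes, which is not adjusted for gene length, so that levels are compared between libraries and not between genes.

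A gene was counted as separated above when its 3 E10 AoV values all lay above all 12 other values, and as separated below when they all lay below. Of 28876 genes in the table, 18553 reached 0.5 RPM in at least 1 library and were kept. In E10 AoV 1241 of these were separated above, which is 6.69%, and 1041 were separated below, which is 5.61%. The same count gave 2374 above and 2539 below in E9 AoD, 1051 and 582 in E9 AoV, 1121 and 1055 in E10 AoD, and 1335 and 331 in E10 UGR. In E10 AoV the count below was 1712 without replicate 3, 1251 without replicate 1 and 1158 without replicate 2. A separated gene was picked for its values, so its levels are a description and no test of a single such gene is given. In bulk tissue, more cells of a type and more RNA per cell cannot be told apart.

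The ventral aorta at this stage is bordered by mesenchyme of the gut mesentery, by the coelomic lining and by the tissue that will form gonad and adrenal gland. Primordial germ cells, the precursors of egg and sperm, migrate through it on their way to the urogenital ridges and keep a network of pluripotency genes switched on. Bone morphogenetic proteins (BMPs) are secreted ligands that signal through SMAD proteins, and extracellular antagonists bind them and limit where they act. In the ventral AGM region this pathway is known for its part in the development of hematopoietic stem cells.

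Depth was between 33.7 and 48.6 megareads per library, worked out from the RPM of a single read, and 3 reads, which a count of 0 still allows, were worth 0.0617 to 0.0889 RPM. This limit covers counting error only. The endothelial markers were present in every group, with a summed level of 1460 to 1540 RPM in E10 AoV, overlapping the 1470 to 1580 RPM of E10 AoD and above the 943 to 1010 RPM of E10 UGR. Erythroid markers varied widely within groups, from 6460 to 12400 RPM in E10 AoV and from 3330 to 15800 in E9 AoV. All 4 comparisons of E10 AoV with another group use the same 3 E10 AoV libraries.

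Among the genes separated above, the nearest of the 12 other libraries was one of E10 UGR for 572 genes (46.1%), of E9 AoV for 322 (25.9%), of E10 AoD for 322 (25.9%) and of E9 AoD for 25 (2.01%). Most gaps were small. The lowest E10 AoV value exceeded the highest other value by a median of 1.12-fold, on RPM plus a pseudocount of 0.1 RPM. The gap was at least 1.5-fold in 200 genes and at least 2-fold in 71, and the largest was 5.74-fold. Among the genes separated below, the median gap was 1.04-fold, 36 genes reached 1.5-fold and 11 reached 2-fold, with a largest gap of 2.89-fold. Here the nearest library was one of E10 UGR for 357 genes (34.3%), of E10 AoD for 349 (33.5%), of E9 AoV for 280 (26.9%) and of E9 AoD for 55 (5.28%). At the edge of the rule stood Ccl2, at 1.0 RPM in its lowest E10 AoV library and 0.999 RPM in the highest other, and Kpnb1, at 929 RPM in its highest E10 AoV library and 930 RPM in the lowest other. Just outside it were Parl and AC168091.1, whose nearest values were tied, at 31.7 RPM for Parl and at 0 for AC168091.1.

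A fit across all genes asked how many differ by more than the spread between libraries. It uses the same 15 values that the separation rule reads, so its counts describe the same data. With limma on log2(RPM + 0.1), a gene was called at a Benjamini-Hochberg adjusted p below 0.05 and a log2 fold change of at least 1 in size. Against the mean of the 4 other groups 955 genes were called higher in E10 AoV (5.15%) and 564 lower (3.04%). Against each of the 4 groups in turn, 161 genes were called higher in every comparison (0.868%) and 42 lower (0.226%). All 161 and all 42 were also separated. Of the 1241 genes above, 78 passed the filter through E10 AoV alone, so that they could differ in no other direction. Of the 1241 genes separated above, 523 were called higher against the mean of the groups, and of the 1041 below, 150 were called lower. Against single groups the calls were 2273 higher (12.3%) and 914 lower (4.93%) for E9 AoD, 1120 (6.04%) and 926 (4.99%) for E9 AoV, 1078 (5.81%) and 796 (4.29%) for E10 AoD, and 712 (3.84%) and 692 (3.73%) for E10 UGR. A call against the mean of 4 groups can rest on 1 of them, and the counts against each group are given beside it for that reason.

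Genes of the germ line and of pluripotency held many of the widest gaps. Of the 20 named genes with the largest gaps above, Pou5f1, Dppa5a, Utf1, Dppa3 and Tcl1 are on the list of primordial germ cell markers. Of the 20 markers listed, 19 are in the table and 17 were kept. Of the 17, 13 were separated above and 0 below, where 6.69% and 5.61% of all genes were, and 12 were called higher against the mean of the groups. Of the 17, 3 (Dppa2, Prdm14 and Tcl1) passed the filter through E10 AoV alone, where they are high. Of the other 14, 10 were separated above, 9 were called higher against the mean of the groups (5.15% of all genes) and 8 against each of the 4 groups (0.868% of all genes). The median log2 fold change of the list was 2.70, against -0.0034 over all genes.

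Pou5f1 (ENSMUSG00000024406, chr17:35642982-35647721, plus strand, protein-coding on NCBIM37) encodes OCT4, the transcription factor that germ cells share with pluripotent stem cells. It was at 13.8, 14.8 and 15.6 RPM in E10 AoV, 2.52, 2.86 and 2.51 in E10 UGR, 1.82, 2.25 and 1.95 in E9 AoV, 0.0769, 0.326 and 0.45 in E10 AoD and 0.787, 0.833 and 0.235 in E9 AoD. Every E10 AoV library lay at least 4.83-fold above every other, with E10 UGR next, E9 AoV after it, and E10 AoD and E9 AoD overlapping at the bottom. Nanog, its partner in the pluripotency network, was at 3.61, 3.84 and 3.91 RPM in E10 AoV, 1.72, 1.32 and 1.04 in E10 UGR, 0.342, 0.557 and 0.666 in E9 AoV, 0.0769, 0.176 and 0.189 in E10 AoD and 0.27, 0.188 and 0.15 in E9 AoD. The order of the groups was the same, and the 3 E10 AoV values spanned a narrow range. Dppa3, which protects maternal methylation marks in the zygote and marks germ cells, was at 4.05, 4.76 and 5.15 RPM in E10 AoV, 1.07, 0.732 and 0.627 in E10 UGR, 0.403, 1.11 and 0.654 in E9 AoV, 0.082, 0.125 and 0.17 in E10 AoD and 0.156, 0.273 and 0.0428 in E9 AoD. Here E9 AoV and E10 UGR overlapped, and both lay below all 3 E10 AoV libraries.

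Prdm14, a regulator of germ cell specification, was at 1.22, 1.05 and 1.3 RPM in E10 AoV, 0.119, 0.329 and 0.113 in E10 UGR, 0.205, 0.209 and 0.166 in E9 AoV, 0.0256, 0 and 0.0237 in E10 AoD and 0.0492, 0.161 and 0.0214 in E9 AoD. In E10 AoD all of its 3 values were at or under 3 reads, and E10 UGR and E9 AoV overlapped. Utf1, a chromatin-bound factor of pluripotent cells, was at 5.06, 5.5 and 4.84 RPM in E10 AoV, 1.07, 1.09 and 0.845 in E10 UGR and 0.501, 0.812 and 0.452 in E9 AoV. Dppa5a, a small RNA-binding protein of pluripotent cells, was at 7.1, 6.55 and 6.31 RPM in E10 AoV, 1.16, 1.36 and 1.11 in E10 UGR and 0.394, 0.654 and 0.506 in E9 AoV. Both had their highest value outside E10 AoV in E10 UGR, at least 4.44-fold and 4.64-fold below the lowest E10 AoV library. Esrrb, Tex19.1, Dppa2, Dppa4 and Tcl1 were separated by 3.19, 2.47, 2.33, 3.1 and 4.49-fold, each with the highest other value in E10 UGR.

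Not all germ line genes had this pattern. Ddx4, the germ cell RNA helicase known as VASA, was at 1.5, 2.0 and 1.3 RPM in E10 AoV, 1.01, 1.13 and 1.07 in E10 UGR and 0.98, 1.18 and 0.832 in E9 AoV, which left a ratio of 1.1. Dnd1, an RNA-binding protein needed for germ cell survival, was separated by 1.35-fold. Nanos3, Tdh, Prdm1 and Ifitm1 were kept and not separated. Prdm1 and Ifitm1, which other cells also express, had means of 23.6 and 36.0 RPM in E9 AoV against 7.22 and 14.7 RPM in E10 AoV. They make up much of the summed level of the list, which was 82.2 to 84.6 RPM in E10 AoV, 71.0 to 79.5 in E9 AoV, 24.3 to 28.3 in E10 UGR, 33.2 to 43.0 in E9 AoD and 8.98 to 11.4 in E10 AoD. The meiotic gene Dazl, at 0.233 to 0.307 RPM in E10 AoV, and Mael stayed under the filter.

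Reads of 50 bases do not place all of these genes with equal certainty. Of the 50-base windows in its exons, 64.6% recur elsewhere in NCBIM37 for Dppa5a, 49.0% for Dppa4, 48.2% for Dppa2, 27.6% for Dppa3, 20.6% for Nanog and 17.8% for Pou5f1, and their levels are uncertain to that extent. The homeobox genes Rhox6 and Rhox9, X-linked genes of the reproductive tract and germ line that were not on the list, stood among the 20 widest gaps as well, with 31.3% and 35.3% of windows recurring. Rhox9 was at 3.78, 4.8 and 4.4 RPM in E10 AoV, 0.642, 0.948 and 0.681 in E10 UGR and 0.353, 0.311 and 0.433 in E9 AoV, and Rhox6 was at 2.94, 3.16 and 3.26 RPM in E10 AoV, 0.602, 0.717 and 0.642 in E10 UGR and 0.353, 0.523 and 0.494 in E9 AoV.

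Promoters are shown for 2 of these genes and for Tnc, a matrix gene described with its group further on. Tnc is in neither of the gene sets counted below. The letters that OCT4, the product of the separated gene Pou5f1, binds were looked for. A half-site of nuclear receptors was looked for as well. The 3 promoters were chosen after the matches were seen. Each is the 250 bases before a RefSeq start on GRCm38.p6, a later build than that of the expression table. Capitals mark the letters AGGTCA, the half-site that nuclear receptors bind, in Pou5f1, and ATGCAAA, the core of the octamer to which OCT4 binds, in Nanog and Tnc, on either strand.
Pou5f1 (GRCm38.p6 chr17:35505782-35506031, plus strand): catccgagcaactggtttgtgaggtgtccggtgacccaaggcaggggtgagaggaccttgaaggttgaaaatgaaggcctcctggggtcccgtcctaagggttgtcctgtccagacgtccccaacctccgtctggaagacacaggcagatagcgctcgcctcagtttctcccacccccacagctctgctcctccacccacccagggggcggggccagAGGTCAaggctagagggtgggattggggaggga
Nanog (GRCm38.p6 chr6:122707239-122707488, plus strand): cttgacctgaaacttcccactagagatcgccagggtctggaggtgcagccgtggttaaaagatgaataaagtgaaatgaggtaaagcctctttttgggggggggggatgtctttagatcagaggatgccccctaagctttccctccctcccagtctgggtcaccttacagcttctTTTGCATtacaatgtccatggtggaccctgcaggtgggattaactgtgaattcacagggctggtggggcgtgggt
Tnc (GRCm38.p6 chr4:64047016-64047265, minus strand): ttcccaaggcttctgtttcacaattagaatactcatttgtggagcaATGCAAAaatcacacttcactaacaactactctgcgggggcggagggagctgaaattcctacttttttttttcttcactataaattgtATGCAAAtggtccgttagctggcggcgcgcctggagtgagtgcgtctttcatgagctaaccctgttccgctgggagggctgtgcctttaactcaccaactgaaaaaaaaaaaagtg
Of 32851 promoters in the RefSeq table, 14.0% hold AGGTCA and 4.12% hold ATGCAAA in this window on either strand. Of the 13 separated germ cell genes 7 had a promoter in the table. AGGTCA was found for Nanog and Pou5f1, and ATGCAAA for Nanog. Of the 20 genes with the widest gaps 10 had a promoter, with AGGTCA in Kcnip4 and Pou5f1 and ATGCAAA in 0. A match of letters is a description and no measurement of binding.

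**Figure D1:**
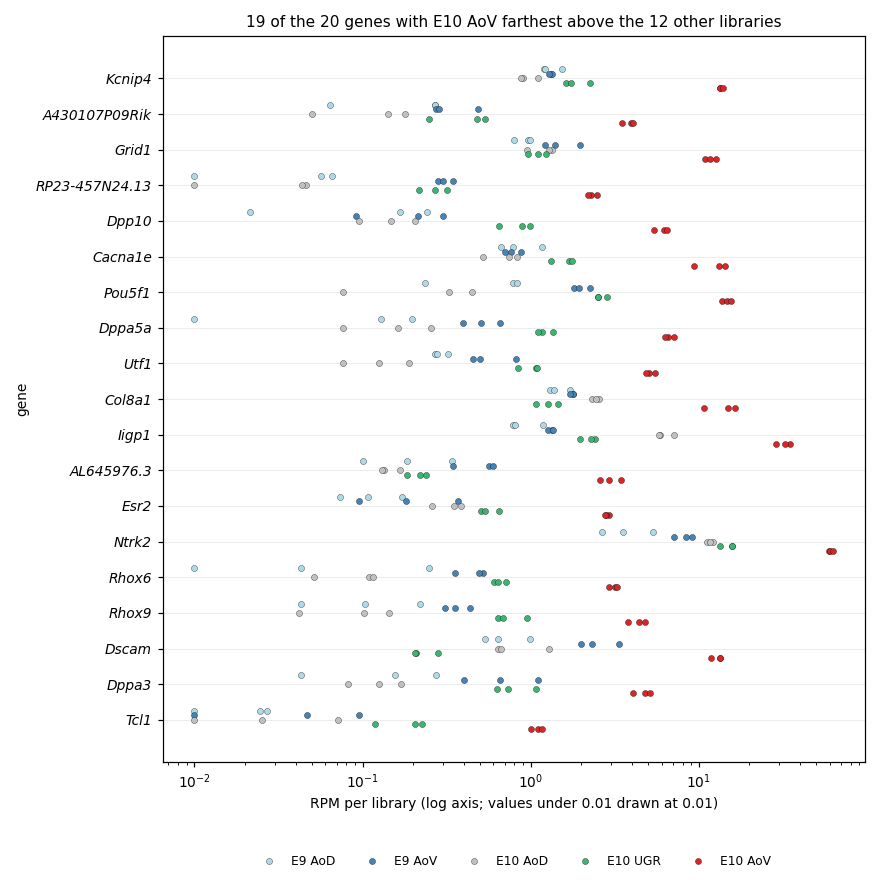
RPM per library (log axis) of 19 of the 20 named genes with the largest gap between the lowest E10 AoV value and the highest of the 12 others, ordered by that gap. Each point is 1 library, coloured by group, and in each gene the 3 E10 AoV points lie to the right of all 12 others, with E10 UGR nearest in most.

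Of the genes with the widest gaps that are on no list, those without a germ line role are described next. Kcnip4 (ENSMUSG00000029088, chr5:48780743-49915940, minus strand, protein-coding), a calcium-binding partner of voltage-gated potassium channels, had the widest gap of all on RPM + 0.1, at 5.74-fold. It was at 13.4, 13.4 and 13.9 RPM in E10 AoV, 1.63, 1.73 and 2.25 in E10 UGR, 1.32, 1.34 and 1.28 in E9 AoV, 1.1, 0.903 and 0.876 in E10 AoD and 1.2, 1.21 and 1.54 in E9 AoD. The 12 other values stayed between 0.876 and 2.25 RPM, and the lowest E10 AoV value was 5.96-fold the highest of them on RPM itself. Dpp10, an accessory subunit of the same channels, was at 6.17, 5.42 and 6.47 RPM in E10 AoV, 0.887, 0.985 and 0.648 in E10 UGR, 0.0912, 0.301 and 0.214 in E9 AoV, 0.205, 0.148 and 0.0947 in E10 AoD and 0.167, 0.242 and 0.0214 in E9 AoD. E10 UGR was the next group by a factor of 5.5, and the 3 other groups were all at or below 0.301 RPM.

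Cacna1e, the pore-forming subunit of R-type calcium channels, was at 13.2, 14.3 and 9.41 RPM in E10 AoV, 1.69, 1.32 and 1.77 in E10 UGR, 0.707, 0.765 and 0.879 in E9 AoV, 0.743, 0.828 and 0.521 in E10 AoD and 0.787, 1.16 and 0.663 in E9 AoD. Replicate 3 of E10 AoV was the lowest of the 3 and still 5.32-fold above the highest E10 UGR value. Grid1, a glutamate receptor subunit of the delta class, was at 10.9, 12.7 and 11.7 RPM in E10 AoV, 1.24, 0.966 and 1.1 in E10 UGR, 1.39, 1.97 and 1.21 in E9 AoV, 1.33, 1.28 and 0.947 in E10 AoD and 0.959, 0.994 and 0.791 in E9 AoD. The 12 other values of Grid1 spanned 0.791 to 1.97 RPM, and E9 AoV alone reached above 1.33 RPM. Dscam, a cell adhesion molecule of the immunoglobulin family, was at 11.8, 13.4 and 13.3 RPM in E10 AoV, 0.207, 0.206 and 0.282 in E10 UGR, 1.98, 3.34 and 2.33 in E9 AoV, 0.64, 1.28 and 0.663 in E10 AoD and 0.639, 0.994 and 0.534 in E9 AoD. It was lowest in E10 UGR and next highest in E9 AoV.

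Ntrk2, which encodes the neurotrophin receptor TrkB, was at 59.2, 60 and 63 RPM in E10 AoV, 15.7, 13.3 and 15.7 in E10 UGR, 7.11, 9.16 and 8.44 in E9 AoV, 12.1, 11.2 and 11.6 in E10 AoD and 3.52, 5.37 and 2.65 in E9 AoD. All 3 E10 AoV libraries lay 3.77-fold or more above the rest, and every E10 library lay above every E9 library. Markers of neural cells are given for the same libraries. The 17 neural crest and sympathoadrenal markers summed to 156 to 199 RPM in E10 AoV, 648 to 744 in E10 AoD, 234 to 247 in E10 UGR, 219 to 267 in E9 AoD and 125 to 128 in E9 AoV. The neural tube markers summed to 5.23 to 6.62 RPM in E10 AoV and to 23.9 to 26.2 in E10 UGR. The part of these cell types in the levels of the 6 genes was not tested.

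Of the remaining genes among the 20 widest gaps, Esr2, estrogen receptor beta, was at 2.91, 2.79 and 2.75 RPM in E10 AoV, 0.504, 0.535 and 0.648 in E10 UGR and 0.384, 0.351 and 0.26 in E10 AoD. Col8a1, a short-chain collagen of vessel walls, was at 14.9, 16.4 and 10.7 RPM in E10 AoV, 1.27, 1.46 and 1.07 in E10 UGR, 1.78, 1.79 and 1.71 in E9 AoV and 2.54, 2.33 and 2.44 in E10 AoD. In Col8a1 the next group was E10 AoD, and the lowest E10 AoV library lay 4.21-fold above it. Of the 20 named genes 3 are records under clone names, whose identity was not looked into. A430107P09Rik, which the annotation types as an immunoglobulin constant gene, was separated by 6.53-fold, and AL645976.3 by 4.29-fold. RP23-457N24.13 was separated by 6.36-fold, with 30.9% of windows recurring elsewhere. Its highest value outside E10 AoV was 0.343 RPM, so it passed the filter through E10 AoV alone and could differ in no other direction.

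Members of the BMP pathway were separated among ligands, antagonists and target genes. Of 24 BMP, TGF-beta and activin ligands kept, 5 were separated above and 2 below, and against the mean of the groups 9 were called higher and 2 lower. Of 21 antagonists and modulators, 8 were separated above and 1 below, with 6 called higher and 2 lower. Of 12 SMAD target genes, 7 were separated above and 0 below, with 3 called higher and 0 lower. Over all genes kept 6.69% were above and 5.61% below, with 5.15% called higher and 3.04% lower, so that the few members below or lower lie near that background. The median log2 fold changes were 0.54, 0.44 and 0.81 in the same order, against -0.0034 over all genes.

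Bmp4 (ENSMUSG00000021835, chr14:47003195-47010344, minus strand, protein-coding), the ligand best known in the ventral AGM region, was at 88.4, 87.9 and 96.6 RPM in E10 AoV, 63.6, 69 and 70.6 in E9 AoV, 52.2, 49 and 54.8 in E10 UGR, 28.5, 25.5 and 31.1 in E10 AoD and 26.9, 35.2 and 19.7 in E9 AoD. E9 AoV came next, and the lowest E10 AoV library lay 1.25-fold above its highest. Bmp5 was at 83.8, 86.6 and 97.3 RPM in E10 AoV, 45.5, 47.3 and 47.7 in E10 AoD, 37, 46.5 and 45 in E9 AoV, 31.1, 27.1 and 28.7 in E10 UGR and 19.3, 22.2 and 16.7 in E9 AoD, a ratio of 1.76, with E10 AoD and E9 AoV overlapping behind it. Tgfb2, a ligand of the TGF-beta branch, was at 127, 128 and 125 RPM in E10 AoV, 52.8, 63.5 and 57.7 in E9 AoV, 53, 63.2 and 45.2 in E10 AoD, 22, 23.4 and 16.6 in E10 UGR and 15.9, 19.3 and 14.9 in E9 AoD. Its 3 E10 AoV values differed by less than 4 RPM, and E9 AoV and E10 AoD overlapped behind them.

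Gdf3, a ligand known from pluripotent cells, was low throughout, at 0.597, 1.02 and 0.699 RPM in E10 AoV and 0.296, 0.247 and 0.197 in E10 UGR. The values of the 3 other groups reached 0.134 RPM at most and lay in part under 3 reads. Bmp6 was separated by 1.26-fold. In the opposite direction, Bmp7 was at 22.5, 18.2 and 18.3 RPM in E10 AoV, 51.7, 49.4 and 48.9 in E10 UGR, 34.8, 37.6 and 37.2 in E9 AoV, 25.9, 30.9 and 25.8 in E10 AoD and 30.1, 34.5 and 28.5 in E9 AoD. Bmp7 is known for its role in kidney development, and it was highest in E10 UGR. Mstn, the ligand myostatin of the muscle lineage, was also separated below, at 0.726, 0.512 and 0.838 RPM in E10 AoV and 9.27, 10.8 and 7.13 in E10 AoD.

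Bmper (ENSMUSG00000031963, chr9:23027520-23289646, plus strand, protein-coding), is a secreted protein that binds BMPs. Its lowest E10 AoV value of 90.1 RPM was 2.0-fold the highest value outside the group, 45.1 RPM in E10 AoD. Nog, the antagonist Noggin, was at 10.2, 9.46 and 11.7 RPM in E10 AoV, 2.13, 2.94 and 2.42 in E10 UGR, 4.92, 3.92 and 4.3 in E9 AoV, 5.12, 4.79 and 5.42 in E10 AoD and 5.41, 4.35 and 5.54 in E9 AoD. E10 UGR was its lowest group, and the 3 other groups overlapped. Chrdl2, a chordin-like antagonist, was at 1.3, 0.946 and 1.23 RPM in E10 AoV, 0.415, 0.617 and 0.648 in E10 UGR and 0.501, 0.348 and 0.404 in E9 AoV. Chrd, Chordin itself, was at 4.43, 4.31 and 5.44 RPM in E10 AoV, 3.59, 3.33 and 3.85 in E9 AoD and 3.73, 3.4 and 3.55 in E10 AoD, a ratio of 1.12.

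Fstl3, which binds activins, was at 4.54, 4.86 and 5.58 RPM in E10 AoV, 2.81, 2.07 and 2.96 in E9 AoV, 2.74, 2.17 and 2.51 in E10 AoD and 2.41, 1.81 and 2.03 in E10 UGR. Kcp, Crim1 and Chrdl1, proteins with chordin-type cysteine-rich repeats, were separated by 1.05, 1.13 and 1.04-fold. The antagonist separated below was Sostdc1, which was at 0.675, 0.46 and 0.373 RPM in E10 AoV, 2.81, 3.58 and 3.29 in E10 UGR, 2.25, 1.81 and 2.08 in E10 AoD, 1.25, 1.18 and 1.64 in E9 AoV and 1.82, 2.15 and 2.72 in E9 AoD. Cer1, the antagonist Cerberus, was at 0 in all 3 E10 AoV libraries and also at or under 3 reads on average in E10 UGR.

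The 7 separated target genes had ratios of 1.01 to 1.52. Smad6, an inhibitory SMAD, was at 91.1, 96.6 and 99.6 RPM in E10 AoV, 56.1, 60 and 54.2 in E9 AoV, 50.9, 44.9 and 44.4 in E10 UGR, 47.8, 51.1 and 47.8 in E10 AoD and 25, 27.7 and 18.9 in E9 AoD. Smad7, the second inhibitory SMAD, was at 83.6, 78.7 and 92.4 RPM in E10 AoV, 60.2, 55.5 and 59.6 in E10 UGR, 52.3, 53.4 and 51.3 in E9 AoV, 42.7, 43.8 and 43.6 in E10 AoD and 30.6, 34.7 and 24.5 in E9 AoD. The ratio of the lowest E10 AoV value to the highest other was 1.52 in Smad6 and 1.31 in Smad7. Id2, an inhibitor of helix-loop-helix factors and a direct SMAD target, was at 376, 356 and 370 RPM in E10 AoV, 268, 253 and 278 in E10 UGR and 235, 232 and 214 in E9 AoV. Id1 was at 191, 169 and 212 RPM in E10 AoV, 142, 126 and 161 in E10 AoD and 125, 120 and 147 in E10 UGR, a ratio of 1.05, and Id4 had the smallest ratio, 1.01. Smad9 and Atoh8 were separated by 1.4 and 1.13-fold. The summed level of the 12 target genes was 1210 to 1290 RPM in E10 AoV, 902 to 1010 in E10 UGR, 772 to 849 in E9 AoV, 747 to 794 in E10 AoD and 488 to 622 in E9 AoD. Of the targets not separated, Msx1, Msx2 and Bambi were highest in E9 AoV, with means of 49.7, 28.5 and 99.5 RPM. Their means in E10 AoV were 9.48, 6.3 and 77.6 RPM. Id3 had means of 279 RPM in E10 AoV and 269 in E10 UGR, and Hey1 had 44.8 and 49.2.

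**Figure D2:**
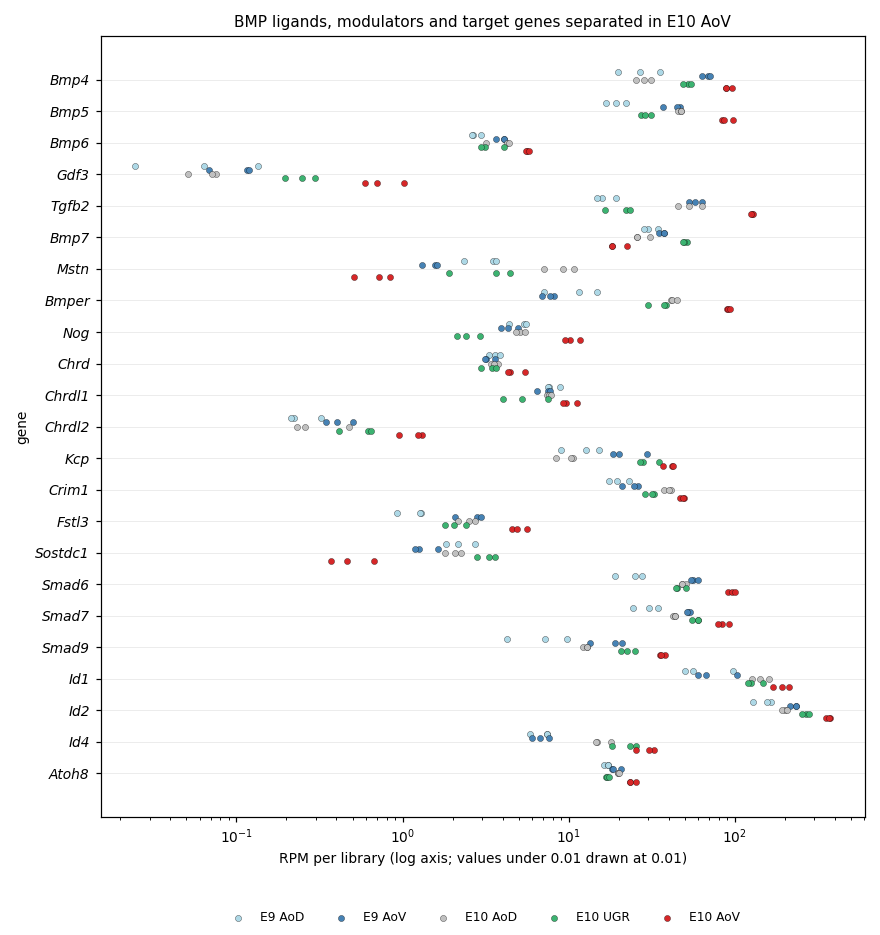
RPM per library (log axis) of the BMP ligands, antagonists and modulators and target genes that were separated in E10 AoV. Each point is 1 library, and E10 AoV is to the right of all others except in Bmp7, Mstn and Sostdc1, where it is to the left, and the widest gaps are those of Gdf3, Tgfb2 and Bmper above and Sostdc1 below.

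Wnt ligands and their inhibitors were more often lower than higher. Of 31 kept, 3 were separated above and 4 below, where 6.69% and 5.61% of all genes were. Against the mean of the groups 3 were called higher and 14 lower, where 5.15% and 3.04% of all genes were. The 3 above and the 3 called higher lie near that background. The median log2 fold change was -0.50, and 11 of the 31 were positive. Wnt2b (ENSMUSG00000027840, chr3:104747723-104764627, minus strand, protein-coding) was at 22.5, 27.5 and 31 RPM in E10 AoV, 11.4, 16 and 14.3 in E9 AoV, 14.6, 15.8 and 15.1 in E10 UGR, 1.74, 1.98 and 2.01 in E10 AoD and 3.74, 5.72 and 2.86 in E9 AoD. E9 AoV and E10 UGR overlapped behind it at up to 16 RPM. Sfrp1, a soluble Wnt inhibitor, was at 512, 539 and 497 RPM in E10 AoV, 414, 414 and 371 in E10 UGR, 266, 297 and 285 in E9 AoV, 128, 153 and 124 in E10 AoD and 157, 168 and 154 in E9 AoD. Wnt5a, a ligand of the planar polarity branch, went the other way and was at 28.6, 30.3 and 23.3 RPM in E10 AoV, 54.4, 55.1 and 44.3 in E10 UGR, 69.6, 80.9 and 64.6 in E10 AoD, 77.3, 84.3 and 93.6 in E9 AoV and 54.4, 60.3 and 60.2 in E9 AoD.

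Wnt7a was at 0.0259, 0.0767 and 0.0931 RPM in E10 AoV, 0.415, 0.37 and 0.479 in E10 UGR and 1.51, 1.0 and 0.9 in E10 AoD. Its E10 AoV values lie about the level of 3 reads, so that no fold is given for it. Wnt7b was at 0.337, 0.333 and 0.536 RPM in E10 AoV, 1.18, 1.25 and 1.3 in E10 UGR and 1.2, 1.78 and 1.23 in E10 AoD. Rspo2, a secreted enhancer of Wnt signalling, was at 0.934, 0.665 and 0.629 RPM in E10 AoV, 3.14, 2.55 and 2.37 in E10 UGR, 5.97, 7.18 and 5.3 in E10 AoD, 8.75, 8.35 and 8.2 in E9 AoV and 3.98, 2.82 and 2.99 in E9 AoD. Against each of the 4 groups 3 of these genes were called lower, where 0.226% of all genes were.

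Of 10 Hedgehog ligands and target genes 0 were separated in either direction, beside 6.69% above and 5.61% below over all genes. Shh, the ligand made by notochord and gut, had a mean of 1.70 RPM in E10 AoV, 1.13 RPM in E10 UGR, 117 RPM in E10 AoD, 42.1 RPM in E9 AoV and 38.6 RPM in E9 AoD. Of the 10, 1 was called higher and 3 lower against the mean of the groups, beside 5.15% and 3.04% of all genes. Against each group 0 were called higher and 0 lower, beside 0.868% and 0.226%.

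**Figure D3:**
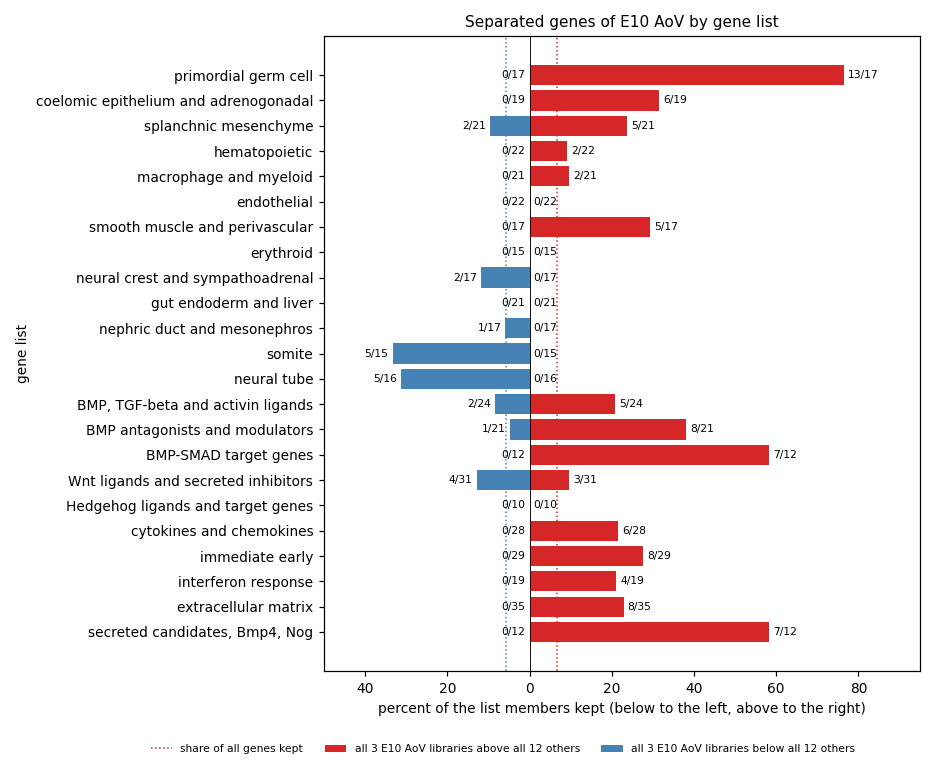
Share of the kept members of each gene list that were separated above (right) or below (left) in E10 AoV, with the number of members beside each bar. Dotted lines mark the share of all kept genes, 6.69% above and 5.61% below, and germ cell markers, BMP-SMAD target genes and the candidates reach farthest to the right while somite and neural tube markers reach farthest to the left. The bottom list was selected by the study on these libraries.

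Markers of the coelomic epithelium and of the adrenal and gonadal primordium were the next group. Of 19 kept, 6 were separated above and 0 below, and 13 were called higher and 0 lower against the mean of the groups, beside 6.69%, 5.61%, 5.15% and 3.04% of all genes. Their median log2 fold change was 1.69. Gata4 (ENSMUSG00000021944, chr14:63817759-63890529, minus strand, protein-coding), a transcription factor of the genital ridge and of splanchnic mesoderm, was at 216, 236 and 248 RPM in E10 AoV, 92.8, 103 and 91.1 in E9 AoV, 64.9, 57.8 and 69.4 in E10 UGR, 11.2, 14 and 3.44 in E9 AoD and 4.07, 5.24 and 6.32 in E10 AoD. Lhx9, a homeobox factor of the early gonad, was at 111, 121 and 116 RPM in E10 AoV, 54.8, 48.7 and 60.8 in E10 UGR, 6.56, 4.54 and 5.21 in E9 AoV and 5.21, 3.52 and 6.16 in E9 AoD. The 2 genes had different second groups, E9 AoV for Gata4 and E10 UGR for Lhx9.

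Zfpm2, the GATA4 partner FOG2, was at 47.5, 52.1 and 42.3 RPM in E10 AoV, 24.9, 22.1 and 21.2 in E10 UGR, 16.3, 19.4 and 17.3 in E9 AoV, 6.69, 7.83 and 7.1 in E10 AoD and 3.61, 3.68 and 2.72 in E9 AoD. Tcf21 was at 51.6, 64.1 and 51.4 RPM in E10 AoV, 33.6, 34.2 and 34.4 in E10 UGR and 16.1, 20.8 and 16.9 in E9 AoV, and Upk3b, a marker of mesothelium, was at 72.9, 81.6 and 93.1 RPM in E10 AoV, 50.9, 49.5 and 55.4 in E10 UGR and 42, 41.4 and 42.3 in E9 AoV. Hsd3b1, an enzyme of steroid synthesis, was low, at 3.71, 3.83 and 2.91 RPM in E10 AoV and 1.54, 1.4 and 1.6 in E10 UGR, with 8.45% of its windows recurring elsewhere. Against each group 4 of the 19 list members were called higher (0.868% of all genes). In 8 of the 19 the mean was higher in E10 UGR than in E10 AoV. The gonadal regulator Nr5a1 had a mean of 65.8 RPM in E10 AoV and 76.9 in E10 UGR, and Wt1, a regulator of gonad and kidney, had 226 and 370.

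Splanchnic mesenchyme markers, which belong to the mesentery and gut wall, included genes on both sides. Of 21 kept, 5 were separated above and 2 below, with 12 called higher and 3 lower, beside 6.69%, 5.61%, 5.15% and 3.04% of all genes, so that the 2 below lie near the background. Fgf10, a growth factor of mesenchyme, was at 55.5, 56.9 and 61.6 RPM in E10 AoV, 25.6, 22.3 and 26.3 in E10 UGR, 22.5, 25.6 and 24.7 in E9 AoV, 11, 12 and 11.1 in E9 AoD and 3.36, 5.42 and 4.18 in E10 AoD. Hlx was at 96.8, 99.2 and 93.7 RPM in E10 AoV, 66.6, 72.6 and 66.4 in E9 AoV, 8.28, 10.8 and 5.34 in E9 AoD and 5.94, 6.42 and 5.35 in E10 AoD, and Gata6 was at 193, 205 and 209 RPM in E10 AoV, 130, 144 and 135 in E9 AoV, 72, 61.5 and 69 in E10 UGR, 23.1, 25.8 and 13.6 in E9 AoD and 14.5, 15.7 and 17 in E10 AoD. E9 AoV was the next group in both, while E10 UGR had a mean of 67.5 RPM for Gata6 and 6.18 RPM for Hlx. The summed level of the list was 722 to 745 RPM in E10 AoV and higher, at 1030 to 1100 RPM, in E9 AoV. Alx4 and Tbx3 were the members below, at 7.65, 5.99 and 5.8 RPM in E10 AoV for Alx4 and 18.2, 16 and 14.1 RPM in E10 AoV for Tbx3, against 44.4 to 53.7 and 68.6 to 89.1 RPM in E10 UGR.

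Smooth muscle and perivascular markers stood highest in E10 AoV as a sum, at 1770 to 1820 RPM, against 1320 to 1490 in E10 AoD, 962 to 997 in E9 AoV, 692 to 755 in E10 UGR and 424 to 601 in E9 AoD. Of 17 kept, 5 were separated above (6.69% of all genes) and 0 below, and 11 were called higher against the mean of the groups (5.15%). In 7 of the 17 the mean was higher in E10 AoD than in E10 AoV. Rgs5 (ENSMUSG00000026678, chr1:171585632-171625944, plus strand, protein-coding), a pericyte gene that regulates G protein signalling, was at 257, 271 and 256 RPM in E10 AoV, 128, 124 and 126 in E10 UGR, 37.9, 47.5 and 41.8 in E9 AoV, 31.3, 35.5 and 30.6 in E10 AoD and 11.9, 14.1 and 5.43 in E9 AoD. Here E10 UGR was nearest and every E10 AoD library lay below every E9 AoV library. Tagln and Cnn1, contractile proteins of smooth muscle, had another order.

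Cnn1 was at 28.8, 28.3 and 31.9 RPM in E10 AoV, 22.4, 18.1 and 22.1 in E10 AoD, 1.78, 1.58 and 1.8 in E10 UGR and 3.12, 4.14 and 1.35 in E9 AoD, and Tagln was at 298, 292 and 335 RPM in E10 AoV, 254, 200 and 272 in E10 AoD, 152, 158 and 156 in E9 AoV, 33.9, 27.1 and 24 in E10 UGR and 62, 67.8 and 34.7 in E9 AoD. In both, E10 AoD was the next group and E10 UGR among the lowest. Des, the intermediate filament desmin, was at 103, 95.7 and 106 RPM in E10 AoV, 71.4, 73.3 and 75 in E10 UGR and 51.4, 52.5 and 50.4 in E9 AoV. Notch3 was separated by 1.06-fold. Of the other pericyte markers 4 were highest in E10 AoD, with means of 154 RPM there and 122 in E10 AoV for the receptor Pdgfrb, 110 and 89.3 for Mcam, 38.3 and 33.3 for Cspg4, and 1.95 and 1.66 for the channel Kcnj8. Acta2 and Myh11 were not separated from E10 AoD, at means of 337 and 23.9 RPM in E10 AoV and 344 and 22.1 in E10 AoD.

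Extracellular matrix genes were separated in 8 of 35 cases above and 0 below, where 6.69% and 5.61% of all genes were, Col8a1 among them. Tnc (ENSMUSG00000028364, chr4:63620819-63681760, minus strand, protein-coding), the matrix glycoprotein tenascin C, was at 425, 476 and 414 RPM in E10 AoV, 20, 20.4 and 19.6 in E10 UGR, 104, 148 and 117 in E9 AoV, 15.8, 20 and 16 in E10 AoD and 18.3, 24.3 and 10.8 in E9 AoD. E9 AoV was the only other group above 24.3 RPM, and the lowest E10 AoV library lay 2.8-fold above its highest. Matn2 was at 18.2, 20.2 and 23.8 RPM in E10 AoV, 7.05, 7.4 and 6.76 in E10 UGR, 6.22, 8.09 and 6.92 in E9 AoV, 6.56, 7.35 and 7.34 in E10 AoD and 4.84, 5.05 and 5.05 in E9 AoD. Fbln2 was at 83.4, 89.8 and 92.5 RPM in E10 AoV, 55, 55.1 and 54.8 in E9 AoV, 37.2, 36.1 and 35 in E10 AoD and 26.3, 29.1 and 28.1 in E10 UGR, and Spon2 was at 15, 15.2 and 17.5 RPM in E10 AoV, 9.53, 11.6 and 9.29 in E9 AoV, 9.3, 7.53 and 8.62 in E10 AoD and 3.38, 3.66 and 3.89 in E10 UGR. Of the 35 matrix genes 14 were called higher and 1 lower against the mean of the groups (5.15% and 3.04% of all genes), and their median log2 fold change was 0.51. Matn2 is a matrilin of the filamentous matrix, Fbln2 a fibulin of vessel walls and Spon2 a secreted spondin.

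Of 22 hematopoietic genes kept, 2 were separated above, a share near the 6.69% of all genes. Of the 22, 8 were called higher against the mean of the groups (5.15% of all genes) and 1 against each of them (0.868%). In 10 of the 22 the mean was higher in E10 AoD than in E10 AoV. Runx1 (ENSMUSG00000022952, chr16:92601712-92826311, minus strand, protein-coding), the transcription factor required for blood cells to emerge from endothelium, was at 22.1, 22.9 and 25.7 RPM in E10 AoV, 16.3, 13.9 and 17 in E10 AoD, 8.09, 9.25 and 8.29 in E9 AoV, 5.15, 4.42 and 3.83 in E10 UGR and 3.17, 4.3 and 2.78 in E9 AoD. E10 AoD followed, 1.3-fold or more below. Spn, which encodes the leukocyte surface protein CD43, was at 3.19, 2.92 and 3.7 RPM in E10 AoV, 1.28, 1.33 and 1.75 in E10 AoD, 1.25, 1.28 and 1.16 in E9 AoV, 0.681, 0.802 and 1.01 in E10 UGR and 0.565, 0.511 and 0.321 in E9 AoD. The summed level of the list was 403 to 441 RPM in E10 AoV, below the 448 to 456 RPM of E10 AoD. Kit, the receptor for stem cell factor, was at a mean of 59.2 RPM in E10 AoV and 61.5 in E9 AoV, and Gfi1, at 3.71 to 5.22 RPM in E10 AoV, overlapped with a highest other value of 4.01 RPM.

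Macrophage markers were called higher against the mean of the groups in 17 of 21 cases and against each group in 0, beside 5.15% and 0.868% of all genes. In 17 of the 21 the mean was higher in E10 AoD than in E10 AoV. The receptor Csf1r had means of 10.4 RPM in E10 AoV and 15.6 in E10 AoD, Cx3cr1 had 11.4 and 14.7, Mrc1 had 17.5 and 20.9, and the complement gene C1qb had 7.97 and 11.1. Their summed level was 168 to 187 RPM in E10 AoV and 154 to 169 in E10 AoD, with 118 to 129 in E10 UGR and at most 48.2 at E9.5. Without Syk, left out after its values were seen, the sum was 108 to 127 RPM in E10 AoV and 132 to 148 in E10 AoD. Syk, a kinase of immune receptors that other cells also express, was at 59.2, 60 and 64.2 RPM in E10 AoV, 33.5, 35.4 and 39.5 in E10 UGR and 20.7, 20.8 and 22 in E10 AoD. Lyz1, lysozyme, was at 2.5, 2.82 and 2.93 RPM in E10 AoV, 1.73, 1.37 and 2.22 in E10 UGR and 0.269, 0.608 and 0.414 in E10 AoD, with 16.1% of its windows recurring elsewhere. Endothelial markers had 0 of 22 separated, beside 6.69% above and 5.61% below over all genes. Of the 22, 2, Gja4 and Gja5, were called higher against the mean of the groups, which lies near the 5.15% of all genes.

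Of 28 cytokines, chemokines and growth factors kept, 6 were separated above and 0 below, with 13 called higher and 2 lower, beside 6.69%, 5.61%, 5.15% and 3.04% of all genes. Angpt2, an antagonist ligand of the TIE2 receptor, was at 31.5, 34.8 and 33.4 RPM in E10 AoV, 17.6, 16.2 and 18 in E10 AoD, 15.1, 18.5 and 15 in E9 AoV, 6.7, 5.88 and 6.76 in E10 UGR and 3.29, 3.76 and 2.2 in E9 AoD. Kitl, which encodes stem cell factor, was at 215, 222 and 227 RPM in E10 AoV, 181, 172 and 184 in E10 UGR, 104, 133 and 120 in E9 AoV, 54.4, 70.7 and 52.9 in E9 AoD and 37.3, 39.4 and 41.8 in E10 AoD. Its E10 UGR values came within 1.17-fold. Csf1, the growth factor of macrophages, was at 19.7, 21.6 and 23.1 RPM in E10 AoV, 14.4, 16.3 and 15.9 in E9 AoV, 15, 12.9 and 13.1 in E10 AoD and 12.1, 12.2 and 12.7 in E10 UGR. Hgf and Rarres2 were separated by 1.19 and 1.2-fold.

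Interferon response genes had 4 of 19 separated above (6.69% of all genes) and 4 called higher (5.15%), and 2 of the 19, Mx2 and Ddx60, passed the filter through E10 AoV alone. Iigp1 (an interferon-inducible GTPase) was at 28.9, 35 and 32.7 RPM in E10 AoV, 5.86, 7.07 and 5.83 in E10 AoD, 2.42, 2.28 and 1.97 in E10 UGR, 1.34, 1.27 and 1.35 in E9 AoV and 0.783, 1.18 and 0.805 in E9 AoD. Its E10 AoV values were 4.09-fold or more above E10 AoD, with 5.38% of its windows recurring elsewhere. Irf5, an interferon regulatory factor, was at 20, 20.3 and 20.5 RPM in E10 AoV, 9.98, 9.36 and 10.9 in E10 UGR, 5.54, 5.61 and 4.8 in E9 AoV, 4.05, 2.94 and 3.48 in E10 AoD and 1.6, 1.85 and 0.898 in E9 AoD. Gbp2 and Oasl2 were separated by 1.37 and 1.25-fold. The summed level was 139 to 153 RPM in E10 AoV and 92.9 to 98.5 RPM in E10 UGR, and in 3 of the 4 other groups it stayed below 100 RPM.

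Immediate early genes respond within minutes to growth factors and also to tissue handling. Of 29 kept, 8 were separated above (6.69% of all genes), 20 were called higher against the mean of the groups (5.15%) and 1 against each group (0.868%). In 24 of the 29 the means of all 3 E10.5 groups lay above both E9.5 means, a difference between stages that was not tested. The summed level, much of it from a few abundant genes such as Jun and Fos, was 5710 to 7400 RPM in E10 AoV, 6260 to 7760 RPM in E10 AoD and 4090 to 4860 RPM in E10 UGR, against 1230 to 2870 RPM in both E9.5 groups. Fosl2, a subunit of the AP-1 factor, was at 30.4, 24.9 and 28.2 RPM in E10 AoV, 15.2, 11.3 and 12.7 in E10 UGR, 10.2, 8.98 and 9.73 in E10 AoD and 6.93, 6.75 and 8.03 in E9 AoV. E10 UGR was its next group. Egr3 was at 7.77, 5.27 and 5.15 RPM in E10 AoV, 3.64, 3.72 and 3.34 in E10 AoD and 3.02, 2.43 and 2.31 in E10 UGR.

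The last list holds secreted candidates that the study selected on these same libraries, with Bmp4 and Nog, 12 in all, so its counts are not independent evidence. All 12 were called higher against the mean of the groups, 7 were separated above, and 4 (Bmper, Gdf3, Nell1 and Nog) were called higher against each group. Gdf3 passed the filter through E10 AoV alone and could differ in no other direction, which leaves 3 of the other 11. Nell1, a secreted protein with growth factor-like repeats, was at 15, 16 and 15 RPM in E10 AoV, 4.81, 4.06 and 5.12 in E10 UGR, 4.33, 4.82 and 4.46 in E9 AoV, 1.3, 1.47 and 1.3 in E10 AoD and 1.4, 2.72 and 1.31 in E9 AoD. The lowest E10 AoV library lay 2.93-fold above every other. The 5 that were not separated, Inhbb, Ibsp, Igfbp3, Cxcl10 and Ccl4, had their highest value in another group. Inhbb, a subunit of activin, was at 10.2, 11.2 and 8.31 RPM in E10 AoV and 16.8, 17.8 and 16.6 in E10 UGR. Ibsp was at 8.04, 6.88 and 7.5 RPM in E10 AoV and 7.7, 6.72 and 8.42 in E10 UGR, and Igfbp3 was at 228, 210 and 238 RPM in E10 AoV and 255, 264 and 229 in E10 UGR. In Ibsp and Igfbp3 both groups overlapped, while all 3 E10 UGR values of Inhbb lay above all 3 of E10 AoV. Cxcl10 also overlapped with E10 UGR, and Ccl4 with E10 AoD.

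**Figure D4:**
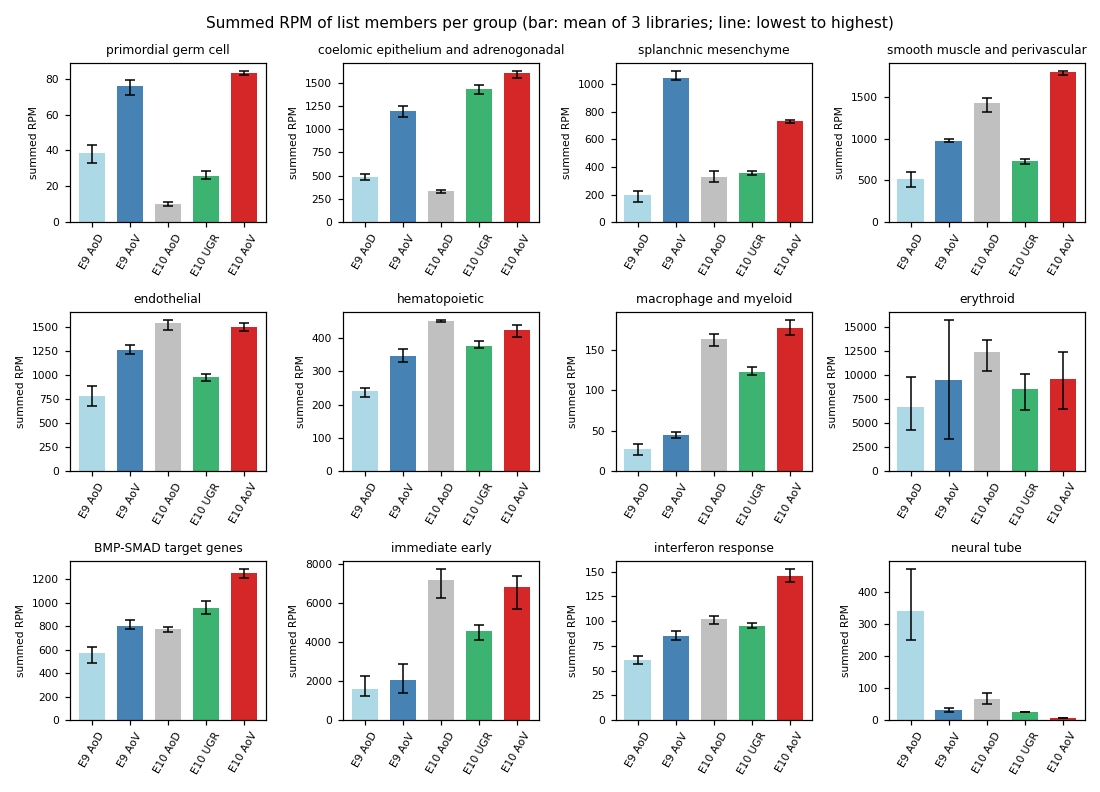
Summed RPM of the members of 12 gene lists in each group, on linear axes that start at 0. Bars are the mean of 3 libraries and lines run from the lowest to the highest library. E10 AoV is highest in the germ cell, coelomic, smooth muscle, BMP-SMAD target and interferon lists, lies below E9 AoV in the splanchnic list, overlaps or lies below E10 AoD in the endothelial, hematopoietic and immediate early lists, and is lowest in the neural tube list.

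On the lower side the somite and neural tube lists held the largest shares of separated genes. Of 15 somite markers 5 were separated below, 11 were called lower against the mean of the groups and 4 against each. Of 16 neural tube markers 5 were separated below, 16 were called lower and 3 against each. Of the 5, Olig2, Neurog2 and Lhx3 were separated by small margins near the level of 3 reads, 0.0617 to 0.0889 RPM. Their highest E10 AoV values were 0.104, 0.0931 and 0.128 RPM, against lowest other values of 0.144, 0.164 and 0.137 RPM. Over all genes 5.61% were below, 3.04% were called lower and 0.226% against each group. The median log2 fold changes were -2.09 and -2.40. The neural tube markers summed to 249 to 474 RPM in E9 AoD and to 5.23 to 6.62 RPM in E10 AoV.

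Pax3 (ENSMUSG00000004872, chr1:78097842-78193709, minus strand, protein-coding), a factor of the dermomyotome and dorsal neural tube, was at 1.87, 0.742 and 1.3 RPM in E10 AoV, 6.66, 4.2 and 7.27 in E9 AoV, 10, 13.2 and 5.94 in E10 UGR, 7.4, 9.71 and 10.2 in E10 AoD and 57.7, 56 and 88.6 in E9 AoD. Its lowest other value was 2.25-fold the highest E10 AoV value. Meox1, a homeobox factor of the somite, was at 24.3, 20.5 and 25.5 RPM in E10 AoV, 57.3, 40.6 and 47.1 in E9 AoV, 79.8, 102 and 72.4 in E10 UGR, 209, 209 and 220 in E10 AoD and 306, 306 and 270 in E9 AoD. E9 AoV, the ventral tissue of the earlier stage, was the nearest group in both. Meox2 also had its nearest value in E9 AoV, at a ratio of 1.88, and Myf5, the earliest factor of muscle determination, was at 0.104, 0.205 and 0.303 RPM in E10 AoV, 0.798, 0.464 and 0.547 in E9 AoV, 2.4, 4.03 and 1.66 in E10 UGR and 2.31, 5.34 and 2.82 in E10 AoD.

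Irx3, an Iroquois homeobox factor of neural tube and limb, was at 3.79, 2.85 and 3.44 RPM in E10 AoV, 8.38, 8.63 and 8.22 in E10 AoD, 20.3, 21.1 and 18.4 in E10 UGR, 24.9, 13.8 and 22.2 in E9 AoV and 58.3, 42.7 and 73.7 in E9 AoD. Its neighbour in the family, Irx5, was at 0.637, 0.57 and 0.871 RPM in E10 AoV, 2.48, 2.69 and 2.99 in E10 AoD, 2.71, 3.53 and 1.98 in E10 UGR and 6.31, 3.12 and 5.87 in E9 AoV. Sall3, a zinc finger factor of limb and nervous system, was at 1.19, 1.2 and 1.14 RPM in E10 AoV, 3.88, 3.87 and 2.93 in E10 UGR, 8.56, 7.08 and 7.55 in E10 AoD and 32, 34.6 and 46.7 in E9 AoD. In these the distance to the nearest group was 2.17, 2.27 and 2.44-fold. Pax6, Olig2, Neurog2 and Lhx3 were all at or below 0.274 RPM in E10 AoV, and E9 AoD held their highest values, up to 6.82 RPM for Lhx3 and 60.3 RPM for Pax6.

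The widest gap below belonged to Tmem132c (ENSMUSG00000034324, chr5:127722178-128046163, plus strand, protein-coding), a transmembrane protein of little-known function. It was at 11.6, 9.28 and 9.86 RPM in E10 AoV, 36.4, 38.4 and 33.7 in E10 AoD, 42.3, 44 and 38.6 in E10 UGR, 56.1, 52.4 and 66.5 in E9 AoV and 99.9, 101 and 123 in E9 AoD. All 12 other libraries were at least 2.91-fold above the highest E10 AoV value. Mpzl2, a cell adhesion protein of epithelia, was at 2.28, 2.1 and 2.24 RPM in E10 AoV, 6.88, 7.58 and 7.76 in E9 AoD, 12.4, 11.7 and 12.3 in E10 UGR and 7.4, 6.45 and 6.89 in E10 AoD. The lowest other value was 2.83-fold above. Ttn, the sarcomere protein titin, was at 1.99, 1.56 and 1.58 RPM in E10 AoV, 11.2, 24.7 and 4.81 in E10 UGR, 12.9, 6.43 and 7.84 in E9 AoV and 9.87, 6.74 and 7.37 in E9 AoD. Replicate 2 of E10 AoD stood apart in Ttn, at 45.5 RPM, and replicate 2 of E10 UGR was the highest of its group.

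**Figure D5:**
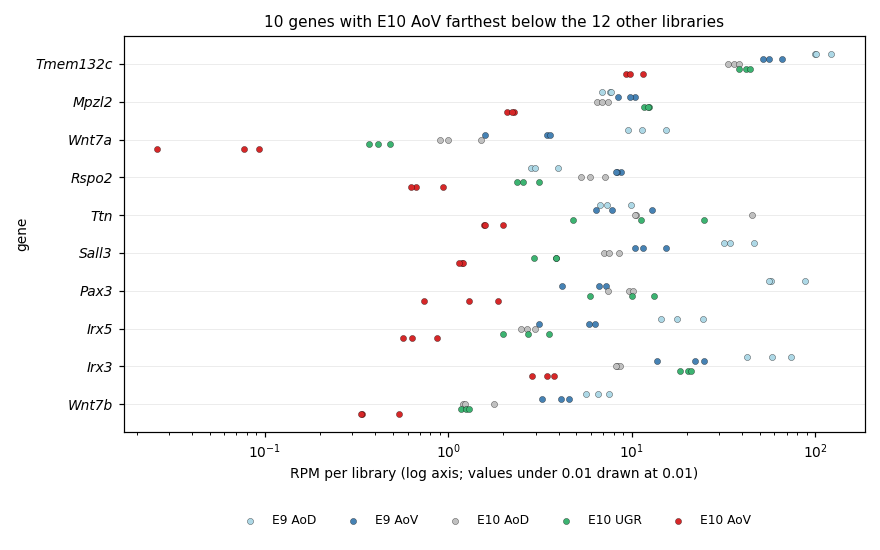
RPM per library (log axis) of the 10 named genes with the largest gap between the highest E10 AoV value and the lowest of the 12 others. Each point is 1 library, and the 3 E10 AoV points lie to the left of all others. In Pax3, Irx5, Irx3 and Sall3 the E9 AoD points lie farthest to the right.

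Of 17 neural crest markers, 2 were separated below, 1 (Dbh) was called higher and 4 lower, beside 5.61%, 5.15% and 3.04% of all genes, so that the counts below and higher lie near the background. Dbh, an enzyme of noradrenaline synthesis, had means of 16.7 RPM in E10 AoV, 98.8 in E10 AoD, 11.4 in E10 UGR and under 1 RPM at E9.5. Erbb3, a receptor of Schwann cell precursors, was at 11.8, 9.62 and 7.59 RPM in E10 AoV, 17.7, 20.5 and 20.2 in E9 AoV, 29.5, 34.7 and 28.9 in E10 UGR, 42, 44.5 and 43.5 in E10 AoD and 25.5, 24.5 and 28.8 in E9 AoD. Ret, the receptor of the enteric nervous system and kidney, was at 15.5, 14 and 12 RPM in E10 AoV, 22.7, 22.6 and 24.9 in E9 AoV, 30.2, 31.5 and 29.5 in E10 UGR, 31.5, 33.6 and 31.4 in E9 AoD and 43.6, 45.3 and 42.8 in E10 AoD. Eya1 was the 1 nephric marker of 17 that was separated below, at a ratio of 1.08, a share near the 5.61% of all genes. Gut endoderm and liver markers were called lower against the mean of the groups in 16 of 21 cases (3.04% of all genes) with 0 separated. They summed to 921 to 1290 RPM in E9 AoV, while E10 AoD and E10 AoV overlapped at 39.8 to 47.8 and 44.0 to 46.5 RPM.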

How the data were processed

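RNA was sequenced as 50-base single-end reads from 15 libraries in 5 groups of 3. The authors aligned the reads to NCBIM37/mm9 with TopHat and Bowtie 0.12.3, counted them over Ensembl genes in GeneProf, dividing reads that matched several genes among them, and deposited each gene in RPM, the reads of a gene per megaread assigned to genes, rounded to 3 significant digits. The deposited table also holds 12 columns of log2 fold changes and adjusted p-values from the authors' DESeq comparisons, which were not used.

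The filter kept genes that reached 0.5 RPM in 1 library or more. A separated gene is one whose 3 E10 AoV values lie all above or all below the 12 others. A linear model of log2(RPM + 0.1) with a mean for each group was fitted by limma 3.58.1 (R 4.3.3), using empirical Bayes moderation with an intensity trend, and Benjamini-Hochberg adjustment over all genes kept. The contrasts were E10 AoV against the mean of the 4 other group means and against each of them. The fit was tested on simulated data. Fold differences on this scale understate those of low genes. The members and the 23 gene lists were chosen with earlier results of these data known.

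Named genes were the 20 with the largest gap above and the 10 below (mean of at least 1 RPM, a name used once), the separated list members, the 12 candidates and 4 genes nearest the edge of the rule. Of the 20, 1 is not reported here. Genes outside this rule that are named with values were chosen after their values were seen. P-values measure the spread between these pooled libraries. Depth was worked out from the step between low values. Of the low values 56.0 to 60.3% were whole multiples of that step, so whole reads could not be recovered. Gene positions were read from GENCODE on NCBIM37, which held 97.4% of the genes kept, and promoters from RefSeq on GRCm38.p6. Python 3.11.15, pandas 2.3.3, numpy 2.4.6 and matplotlib 3.10.9 were used.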

Additional observations from a re-analysis of the deposited data

How the results depend on the processing

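The counts of separated genes depended on the width of the gap asked for, and those of called genes on the fold scale. With a gap of at least 1.5-fold 200 genes were separated above and 36 below, and with 2-fold 71 and 11. Higher pseudocounts, which shrink folds of low genes, lowered the calls against the mean of the groups from 955 higher and 564 lower to 619 and 342 at 0.5 RPM and to 476 and 229 at 1 RPM, and those against each group from 161 and 42 to 88 and 16 and to 69 and 13. With the 12 other libraries as 1 group, 321 genes were called higher and 85 lower. Without a fold threshold the counts were 4808 and 4718 against the mean and 759 and 553 against each. Leaving out 1 library at a time, so that fewer values had to be separated, gave 1241 to 1552 genes above and 1044 to 1712 below. The count below was 1712 without replicate 3 of E10 AoV, 1251 without its replicate 1 and 1158 without its replicate 2. The same fits gave 924 to 1004 called higher and 537 to 594 lower against the mean, and 149 to 169 and 36 to 51 against each. Quantile normalization, TMM factors, other filters, no intensity trend and the E10.5 groups alone kept each count they gave within 1.5 times. No named gene changed direction, and 42 lost their call with the 12 libraries as 1 group, 15 at a pseudocount of 1 RPM and 15 with the E10.5 groups alone.

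With the replicate number as a replicate block the counts were 955, 564, 161 and 42, and all these genes were the same. Every group holds each replicate number, so the block leaves all fold changes as they were. The match of the counts therefore does not show that the numbers have no effect. Over both stages, deviations of same-numbered libraries correlated between -0.245 and 0.579, with a median of 0.079. Of these pairs 14 of 30 were over 0.1, and 9 of 15 libraries correlated best with their own number. Within a stage every same-numbered pair correlated positively, at 0.25 to 0.579 at E9.5 and 0.074 to 0.436 at E10.5. Pairs of unlike number within a stage ran from -0.465 to 0.251. The labels do not say what the numbers mark, and they were not used to pair the libraries. A pairing within each stage was not tested.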

Other observations

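Gene families read from the symbols, chosen after their values were seen, differed in how many members were separated. Of 17 protocadherin beta genes, homophilic adhesion molecules of neurons, 11 were separated above (64.7%) and 0 below, with a median log2 fold change of 1.14, where 6.69% of all genes kept were above. These genes are close copies of one another, so the division of reads among them is uncertain. Of 23 classical and related cadherins 8 were separated above (34.8%) and 0 below. Cdh18 had a mean of 6.91 RPM in E10 AoV against 1.18 over the 12 others, Cdh10 28.3 against 7.66, and Cdh8 9.38 against 2.79. All 3 are type II cadherins. Of 12 matrix metalloproteinases, enzymes that cut matrix proteins, 6 were above and 0 below, with Mmp16 at a mean of 49.0 RPM against 16.2 and Mmp2 at 240 RPM against 159. Only 6 of the 12 had a positive log2 fold change, and the median of the family was 0.25.

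On the lower side stood genes of protein synthesis, with small differences. Of 51 Rpl genes of the large ribosomal subunit 15 were separated below (29.4%), of 44 Rps genes of the small subunit 10 (22.7%), of 47 Mrpl genes of the mitochondrial ribosome 11 (23.4%) and of 56 Eif translation factor genes 11 (19.6%), where 5.61% of all genes were, and 0 of these families were above. The median log2 fold changes were -0.20, -0.15, -0.15 and -0.13. By annotation, 8.59% of 1793 pseudogenes and 5.56% of 15281 protein-coding genes were separated below, and 2.06% and 7.43% above. A fold on RPM is relative to the library's total, and the part of pseudogene reads in the Rpl and Rps counts was not tested.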
